A study of Mus musculus with 4 samples.

Results

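The genes described here encode the ATR kinase with its partner, its 2 activators, and the 9-1-1 clamp with its loader, including the 2 clamp paralogs known from testis. They were chosen by symbol and are Atr, Atrip, Topbp1, Etaa1, Rad17, Rad1, Rad9a, Rad9b, Hus1 and Hus1b, that is 10 of the 23420 genes with a value. Each symbol was matched, and each gene had a mean above 1 TPM (transcripts per 1000000, a level per length of transcript) in both groups, so that all 10 entered the test. RNA was sequenced from pachytene spermatocytes, the cells of meiotic prophase in which homologous chromosomes are synapsed, sorted from testes of wild-type adult C57BL/6 male mice of 23 weeks. The sorted cells were cultured for 24 h with the solvent DMSO (Ctrl, 2 libraries) or with 10 µM AZ20, an inhibitor of ATR kinase activity (AZ20, 2 libraries). The study's methods say that each mouse gave cells to both conditions. Libraries with the same replicate number are taken here as a pair, which the labels do not state. The comparison asks whether the transcripts of the ATR activation machinery changed when the kinase itself was blocked for a day.

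ATR is recruited to single-stranded DNA coated by the RPA complex through ATRIP. It is switched on by an activating domain that is found in TOPBP1 and in ETAA1. TOPBP1 acts through the clamp, a ring of 1 RAD9, 1 HUS1 and 1 RAD1 subunit that RAD17 places on DNA next to a junction, whereas ETAA1 binds RPA directly. In male meiosis ATR and TOPBP1 also act on the unsynapsed axes of the X and Y chromosomes, where ATR signalling silences the sex chromosomes. Mammals carry 2 genes for each of 2 clamp subunits: Rad9b is the paralog of Rad9a and Hus1b that of Hus1, while RAD1 has 1 gene, so that alternative clamps share RAD1.

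The libraries held about 14400000 to 20900000 reads on genes, as recovered from the steps between low TPM values. All 12 markers of pachytene spermatocytes were present, at 6.30 to 2924 TPM. Markers of Sertoli cells, Leydig cells, macrophages and peritubular myoid cells summed to at most 4.60 TPM per library for each list, with Sox9, Wt1, Cyp17a1, Cyp11a1, Hsd3b1, Insl3, C1qa and Des listed at 0 in every library. Of 7 spermatogonial markers, Uchl1 alone exceeded 10 TPM in a library, and Stra8, Dmrt1 and Sohlh1 were listed at 0. The 8 spermatid markers were present and summed to 370 and 155 TPM in Ctrl and to 785 and 258 TPM in AZ20, and Prm1, Prm2, Tnp1, Tnp2, Spaca1 and Odf1 exceeded 10 TPM in a library. Within each pair AZ20 had the higher spermatid sum, and within each condition replicate 1 had. As a check of the labels, 216 of 341 tested X-linked genes were called higher in AZ20. In bulk RNA of this kind, a change in the share of cells of a stage and a change in RNA per cell cannot be told apart.

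Each paralog pair had to be distinguishable in these reads before its levels could be set side by side. The coding sequences of Rad9a (1167 bases) and Rad9b (1209 bases) were identical at 63.6% of 1079 aligned bases, and those of Hus1 (843 bases) and Hus1b (828 bases) at 63.4% of 827. The longest run of coding bases shared by Rad9a and Rad9b was 13 bases, and that shared by Hus1 and Hus1b was 11, both far shorter than a read. The stretches below hold these longest shared runs (for Hus1 and Hus1b, 1 of 2 of that length), given in capitals, and are shown to let the coding sequences be compared where they share most bases in a row. Over whole transcripts, untranslated ends included, the longest shared runs were 13 and 12 bases. They are coding strand sequences from GRCm38, at chr19:4200484-4200573 for Rad9a, chr5:122351278-122351367 for Rad9b, chr11:9000120-9006021 for Hus1, where the 90 bases span an intron, and chr13:30947087-30947176 for Hus1b, all on the minus strand.
Rad9a: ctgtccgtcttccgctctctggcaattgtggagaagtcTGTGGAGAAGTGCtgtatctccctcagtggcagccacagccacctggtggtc
Rad9b: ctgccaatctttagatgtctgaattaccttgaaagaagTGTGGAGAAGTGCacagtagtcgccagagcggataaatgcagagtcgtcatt
Hus1: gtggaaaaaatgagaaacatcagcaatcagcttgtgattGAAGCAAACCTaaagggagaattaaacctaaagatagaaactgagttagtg
Hus1b: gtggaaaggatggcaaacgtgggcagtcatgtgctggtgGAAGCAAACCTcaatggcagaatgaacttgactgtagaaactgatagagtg
Outside the capitals the paralogs differed at many positions of these stretches. A read that maps to 1 place in the genome therefore belongs to 1 member of each pair.

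In Ctrl, the level per length ran from Atr, at 89.1 ± 5.7 TPM (SD, n = 2), through Rad1, Rad9b, Hus1b, Rad17, Topbp1, Atrip, Etaa1 and Hus1 down to Rad9a at 1.22 ± 0.95 TPM. The only neighbours in this order whose 2 libraries overlapped were Hus1b and Rad17. Atr lay above 84.5% of all tested genes and Rad9a above 11.4%. In AZ20, Rad1 stood first and Atr second, Hus1b had moved to the third place, and Rad17, Rad9b and Topbp1 overlapped with their neighbours, as did Hus1 and Rad9a at the low end. For both subunits with 2 genes, the testis paralog was among the first 5 and the canonical gene was in one of the last 2 places of each order.

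**Figure D1:**
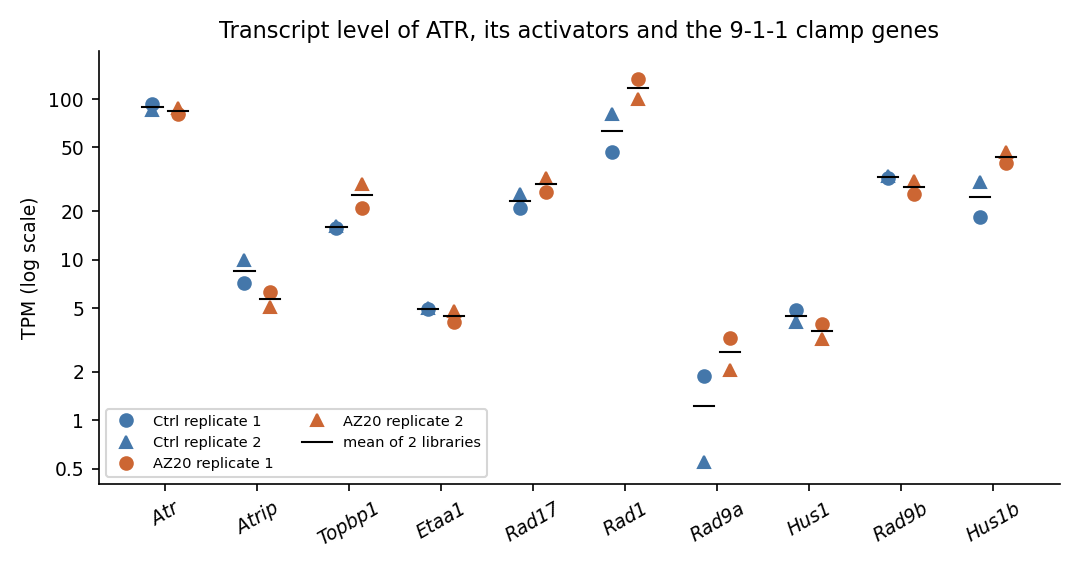
Level of each of the 10 genes in TPM (vertical log axis) in each of the 4 libraries, with Ctrl in blue, AZ20 in orange, replicate 1 as circles, replicate 2 as triangles and group means as lines. Rad9b and Hus1b sit above Rad9a and Hus1 in every library. Topbp1, Rad17, Rad1, Rad9a and Hus1b are higher in both AZ20 libraries than in both Ctrl libraries, as are 26.4% of all tested genes.

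Atr (chr9:95857597-95951781, plus strand, GRCm38) had 93.2 and 85.1 TPM in Ctrl and 80.95 and 87.5 TPM in AZ20. The groups overlapped, and the 2 pairs differed in sign. Among the 10 genes Atr alone showed either. Over all tested genes, both AZ20 libraries lay above both Ctrl libraries for 26.4% and below for 11.7%. Groups that do not overlap always give pairs of the same sign, so the 2 traits are not separate. The share of all genes whose pairs differ in sign was not calculated. The change on the log2(TPM + 1) scale was −0.08 (SE 0.17, 95% interval −0.49 to 0.33, limma adjusted p = 0.945). These values rested on 7590 to 9503 reads per library, the deepest of all members. AZ20 acts on the kinase and not on its gene, so the transcript is no check of inhibition. Exons of Atr share 78 bases with the antisense gene 1700065D16Rik and 462 with antisense Gm16794, out of a length of about 8109 bases, and whether counting used the strand is not given in the sources used here.

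Atrip (chr9:109057933-109074124, minus strand), whose protein carries ATR to RPA, had 7.13 and 9.94 TPM in Ctrl and 6.28 and 5.10 TPM in AZ20. Both AZ20 libraries were below both Ctrl libraries, but the pairs differed by unequal amounts, −0.16 in pair 1 and −0.84 in pair 2 on the log2(TPM + 1) scale. The fitted change was −0.50 (SE 0.27, 95% interval −1.14 to 0.14, limma adjusted p = 0.685), which did not pass the test. There were 8.56 to 17.2 TPM of Atr for each TPM of Atrip, and the lowest and the highest of these ratios came from Ctrl replicate 2 and AZ20 replicate 2, the same pair.

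Topbp1 (chr9:103305215-103350428, plus strand), the activator that works through the clamp, had 15.8 and 16.3 TPM in Ctrl and 21.0 and 29.8 TPM in AZ20. The Ctrl libraries were close together and both AZ20 libraries lay above them, with AZ20 replicate 2 the highest. The change was 0.61 on the log2(TPM + 1) scale (SE 0.24, 95% interval 0.04 to 1.18), a 1.58-fold ratio of the mean TPM. It had an unadjusted p of 0.0398 and a limma adjusted p of 0.506.

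Etaa1 (chr11:17938756-17953875, minus strand), the activator that binds RPA, had 4.92 and 4.98 TPM in Ctrl and 4.10 and 4.80 TPM in AZ20. Both AZ20 libraries were below the Ctrl libraries, AZ20 replicate 2 by little. The change of −0.13 (SE 0.25, 95% interval −0.73 to 0.47, limma adjusted p = 0.934) did not pass the test. Topbp1 was 3.21 and 3.28 times the level of Etaa1 in Ctrl and 5.12 and 6.21 times in AZ20. The ratio was higher in both AZ20 libraries, but 2 libraries against 2 cannot give an exact permutation p below 0.333.

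Rad17 (chr13:100617164-100651051, minus strand), the large subunit that gives the clamp loader its specificity, had 21.1 and 25.6 TPM in Ctrl and 26.55 and 32.3 TPM in AZ20. Ctrl replicate 2 and AZ20 replicate 1 nearly met, so the groups were separate by a small gap. The 2 pairs gave the same change, 0.32 on the log2(TPM + 1) scale, equal to the fitted value (SE 0.22, 95% interval −0.20 to 0.85, limma adjusted p = 0.771). Exons of Rad17 share 73 bases with antisense Ak6.

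Rad1 (chr15:10486018-10499063, plus strand), the subunit common to all forms of the clamp, showed the largest change of the 10 genes on the log2(TPM + 1) scale. Rad9a, described below, exceeded it with smaller pseudocounts and with voom. The rank also depended on single libraries. Without Ctrl replicate 1, Rad1 was at 0.52 and Rad9a at 1.22, and without AZ20 replicate 1, Rad1 was at 0.70 and Hus1b at 0.95. Rad1 had 47.0 and 80.2 TPM in Ctrl and 133 and 101 TPM in AZ20, from 711 to 2901 reads. Both AZ20 libraries were above both Ctrl libraries, and pair 1 differed far more than pair 2, by 1.48 against 0.33 on the log2(TPM + 1) scale. The change was 0.90 on the log2(TPM + 1) scale (SE 0.29, 95% interval 0.22 to 1.58), or 1.84-fold in mean TPM. The unadjusted p was 0.0163 and the limma adjusted p 0.346. With the replicate number as a block, the adjusted p was 0.0177, the lowest of 13 alternatives, of which the highest gave 0.771, and with the block in a voom fit on recovered reads it was 0.0528. The change stayed below 2-fold in each of these fits, and Rad1 was called in none. The fold limit alone decided this only in the blocked fit on log2(TPM + 1). In the fit without the block and in the blocked voom fit, the adjusted p was also above 0.05. The library with the highest Rad1, AZ20 replicate 1, also had the highest spermatid marker sum (785 TPM), whereas Ctrl replicate 1 had a higher sum than Ctrl replicate 2 (370 against 155 TPM) and less Rad1. The part of spermatids in the result was not tested.

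Rad9a and Rad9b encode the RAD9 subunit, and it is the tail of RAD9A that is known to bind TOPBP1. Rad9b (chr5:122323223-122354233, minus strand) had 32.2 and 33.0 TPM in Ctrl and 25.65 and 30.9 TPM in AZ20. The AZ20 libraries were the lower ones, and the change of −0.20 (SE 0.20, 95% interval −0.69 to 0.28, limma adjusted p = 0.849) did not pass the test. Rad9a (chr19:4195196-4201662, minus strand) had 1.89 and 0.551 TPM in Ctrl and 3.26 and 2.05 TPM in AZ20. Neither AZ20 library overlapped with Ctrl, but AZ20 replicate 2 exceeded Ctrl replicate 1 by little. The counts behind Rad9a were small, with 39 and 13 in the Ctrl libraries against 97 and 55 with AZ20, so its fitted change of 0.77 (SE 0.40, 95% interval −0.18 to 1.72, limma adjusted p = 0.677) was the least precise of the 10. The ratio of the mean TPM was 2.18-fold, the only one above 2-fold among the members. Its level is close to the pseudocount of 1, and the log2 change of Rad9a was 1.24 with a pseudocount of 0.1, 1.33 with 0.01 and 1.35 with voom on recovered reads, without a call. In both conditions Rad9a was higher in replicate 1, as was the spermatid marker sum, and the part of spermatids in its level was not tested. Exons of Rad9a share 225 bases with antisense Ppp1ca, which had 1.45 to 2.61 TPM.

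Rad9b exceeded Rad9a in each of the 4 libraries. The ratio of their TPM was 17.1 and 59.9 in Ctrl and 7.87 and 15.1 in AZ20, and Rad9b made up 88.7% to 98.4% of the RAD9 transcripts. These 4 libraries are taken as 2 pairs that each share a mouse, so the levels are given without a test. The log2 ratio, taken on TPM + 1, was 3.99 ± 0.66 in Ctrl and 3.02 ± 0.53 in AZ20 (SD, n = 2). It was lower with AZ20 in both pairs, by 0.88 and 1.07, and the exact permutation p of the difference was 0.333, the smallest that 2 libraries against 2 can give. Taken by pair, an exact sign-flip test gave 0.5, the smallest that 2 pairs can give. The highest ratio came from the library with 13 reads on Rad9a.

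Hus1b (chr13:30946573-30947759, minus strand) is a gene of a single exon that lies inside an intron of Exoc2 on the same strand. It had 18.5 and 30.55 TPM in Ctrl and 40.0 and 47.0 TPM in AZ20, from 221 to 731 reads. Both AZ20 libraries were above both Ctrl libraries, with Ctrl replicate 1 the lowest. The change was 0.84 on the log2(TPM + 1) scale (SE 0.27, 95% interval 0.19 to 1.49), 1.77-fold in mean TPM, with pair changes of 1.07 and 0.60. The unadjusted p was 0.0188 and the limma adjusted p 0.376. With the replicate block the adjusted p was 0.0347, the lowest of 13 alternatives, the highest being 0.796, and with voom and the block it was 0.128. Again the change was below 2-fold. Exoc2, whose unspliced RNA would hold the same bases, had 8.65 and 8.12 TPM in Ctrl and 7.06 and 9.02 TPM in AZ20, so its groups overlapped. The part of unspliced Exoc2 RNA in the Hus1b reads was not tested.

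Hus1 (chr11:8993137-9011191, minus strand) had 4.87 and 4.11 TPM in Ctrl and 3.96 and 3.19 TPM in AZ20. The AZ20 libraries were again the lower ones, by like amounts in the 2 pairs, and the change of −0.26 (SE 0.27, 95% interval −0.90 to 0.38, limma adjusted p = 0.857) did not pass the test. Hus1b was above Hus1 in each of the 4 libraries, 3.79 and 7.44 times in Ctrl and 10.1 and 14.7 times in AZ20. It made up 79.1% to 93.6% of the HUS1 transcripts. The log2 ratio on TPM + 1 was 2.18 ± 0.63 in Ctrl and 3.28 ± 0.33 in AZ20 (SD, n = 2). It was higher with AZ20 by 1.31 and 0.89 in the 2 pairs, with an exact permutation p of 0.333, or 0.5 by pair, again the smallest possible. The ratios of the 2 paralog pairs thus differed in opposite directions: Rad9b was a smaller part of its subunit's transcripts in AZ20 and Hus1b a larger part. These libraries are too few to test either difference. The parts of Rad9b nearly met, at 94.5% in Ctrl replicate 1 and 93.8% in AZ20 replicate 2.

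Summed over paralogs, the RAD9 transcripts came to 34.1 and 33.5 TPM in Ctrl and to 28.9 and 32.95 TPM in AZ20. The HUS1 transcripts came to 23.3 and 34.7 TPM in Ctrl and to 43.9 and 50.2 TPM in AZ20. RAD1, needed once in every ring, exceeded both sums in each library. Rad1 was 1.38 and 2.39 times the RAD9 sum in Ctrl and 4.60 and 3.06 times in AZ20, and both AZ20 ratios lay above both Ctrl ratios. Against the HUS1 sum, the Rad1 level was 2.01 and 2.31 times in Ctrl and 3.03 and 2.01 times in AZ20, and the groups overlapped. Transcript levels do not give the amounts of the proteins, which were not measured in these files.

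**Figure D2:**
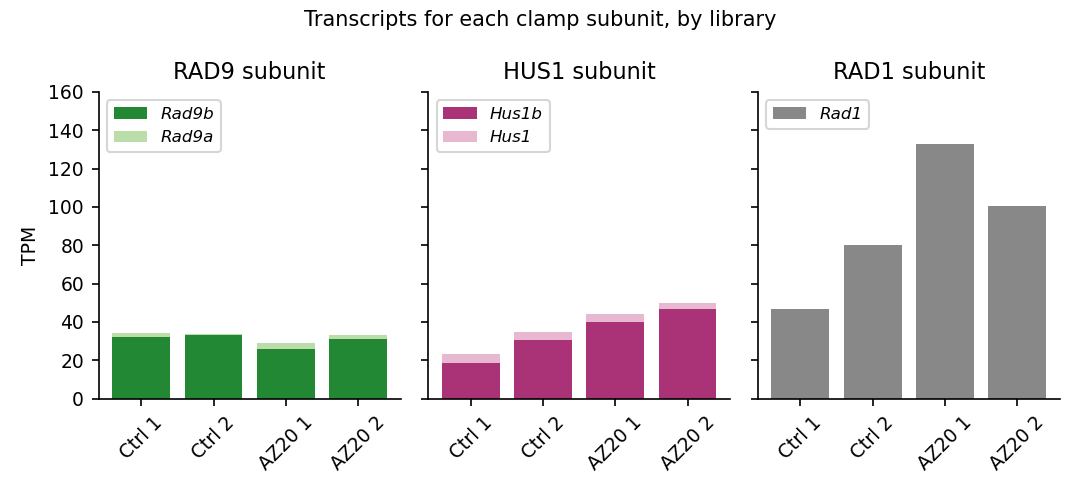
Transcripts for each subunit of the 9-1-1 clamp in TPM (vertical axis from 0) in each of the 4 libraries, stacked by gene. The RAD9 bars stay between 28.9 and 34.1 TPM and are mostly Rad9b, the HUS1 bars are mostly Hus1b and run from 23.3 to 50.2 TPM, and the Rad1 bars run from 47.0 to 133 TPM.

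None of the 10 genes was called, that is changed at least 2-fold with a limma adjusted p under 0.05, in the fit on log2(TPM + 1) or in the fit with voom on recovered reads. Over all tested genes 240 of 10316 were called (2.33%), and over autosomal genes, where all 10 members lie, 15 of 9930 (0.151%). The count of 240 became 0 when either AZ20 library was left out. At an unadjusted p under 0.05, 3 members were higher with AZ20 (Topbp1, Rad1 and Hus1b), against 8.03% of all tested genes, and 0 were lower, against 1.13%. Shares of all tested genes in this paragraph include 341 X-linked genes, of which 216 were called higher. Of 7365 autosomal tested genes with a promoter, 5.02% were higher at an unadjusted p under 0.05. Both AZ20 libraries lay above both Ctrl libraries for 5 members (Topbp1, Rad17, Rad1, Rad9a and Hus1b), against 26.4% of tested genes, and below for 4 members (Atrip, Etaa1, Hus1 and Rad9b), against 11.7%. The median change of the 10 was 0.12, beside 0.07 for all tested genes and 0.06 for autosomal genes. With the replicate block and no limit on the fold, a rule chosen after seeing the data, 2 members passed an adjusted p of 0.05, both higher (Rad1 and Hus1b), against 4.61% of tested genes that passed as higher. Neither passed when the blocked fit used voom on recovered reads. The interval of each gene leaves room for changes that these libraries could not resolve: those of Rad1, Rad9a, Hus1b and Topbp1 reached beyond a 2-fold increase and that of Atrip beyond a 2-fold decrease.

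**Figure D3:**
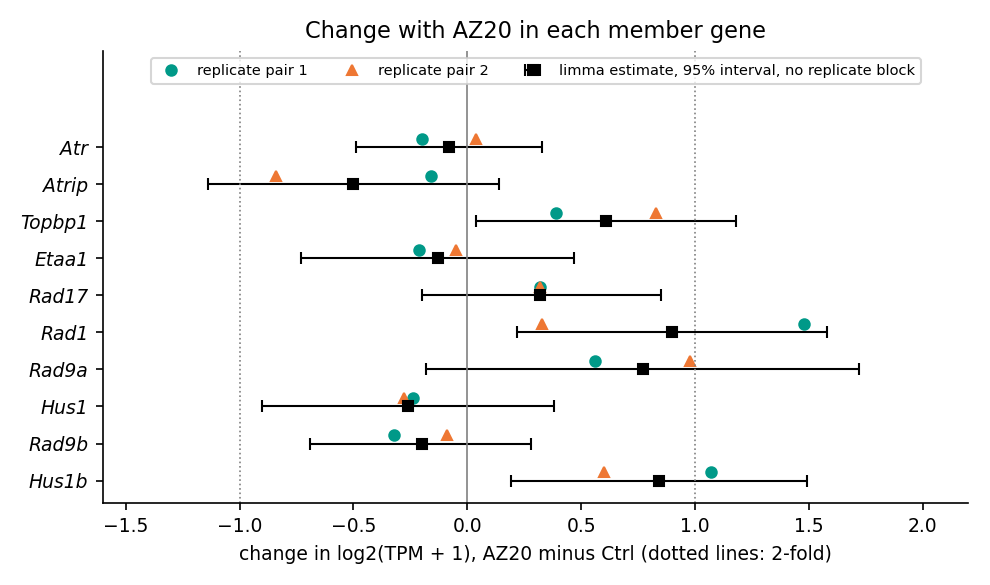
Change in log2(TPM + 1), AZ20 minus Ctrl (horizontal axis), for each of the 10 genes, with squares and bars for the limma estimate and its 95% interval without the replicate block, and coloured points for the 2 replicate pairs. The bars of Topbp1, Rad1 and Hus1b lie above 0, no square reaches the dotted 2-fold lines, and Atr alone has pairs on both sides of 0.

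Other genes of the pathway showed no call either. Of 40 genes in 5 lists, 38 were tested (Atad5 and Telo2 were below the minimum level), and 0 were called in either direction. Few calls fall outside the X chromosome, with 2.33% of all tested genes and 0.151% of autosomal genes called. Without adjustment 0 were higher and 1 was lower at p under 0.05, against 8.03% and 1.13% of all tested genes. That gene was Rfc1, the large subunit of the loader of PCNA, the replication clamp, with 32.6 and 25.5 TPM in Ctrl and 20.04 and 19.5 TPM in AZ20. Its change was −0.52 on the log2(TPM + 1) scale (SE 0.22, limma adjusted p = 0.541). Both AZ20 libraries lay above both Ctrl libraries for 7 of the 38 genes, against 26.4% of all tested genes. They lay below for 5, against 11.7%, and the median change of the 38 was 0.02.

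Among loader subunits and other clamps, with a median change of −0.10, Rfc1 was the lowest and Rhno1, whose protein binds the 9-1-1 clamp and TOPBP1, the highest (0.36). Rhno1 overlapped between groups, at 6.84 and 5.89 TPM in Ctrl and 6.01 and 11.6 TPM in AZ20. Among factors of single-stranded DNA and replication forks, with a median of −0.11, the range ran from −0.27 for Timeless, a fork protection protein, to 0.49 for Rpa2, a subunit of the RPA complex. Rpa2 had 43.2 and 58.0 TPM in Ctrl and 74.4 and 67.5 TPM in AZ20, without overlap (limma adjusted p = 0.555). Break sensing and resection genes had a median of −0.16 and ran from −0.26 for Nbn, of the complex that senses breaks, to 0.40 for Dna2, a nuclease of end resection. Genes that bring ATR to unsynapsed chromosomes or spread its signal had a median of 0.24. They ran from 0.01 for Brca1 to 0.43 for Mdc1, which binds the phosphorylated histone H2AX, and Mdc1 had 5.81 and 5.13 TPM in Ctrl and 6.72 and 8.83 TPM in AZ20. Related kinases and their chaperones had a median of 0.19, from −0.07 for Atm, the kinase of double-strand breaks, to 0.25 for Trrap, a relative without kinase activity. The changes of Rad1, Hus1b, Rad9a and Topbp1 were each larger on this scale than the highest change in any of these lists. None of these genes was called, and members and lists were chosen with earlier results known. The order also depended on single libraries. Leaving out a library took Rad9a as low as 0.32 and Topbp1 as low as 0.37, beside 0.49 for Rpa2 with all libraries.

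**Figure D4:**
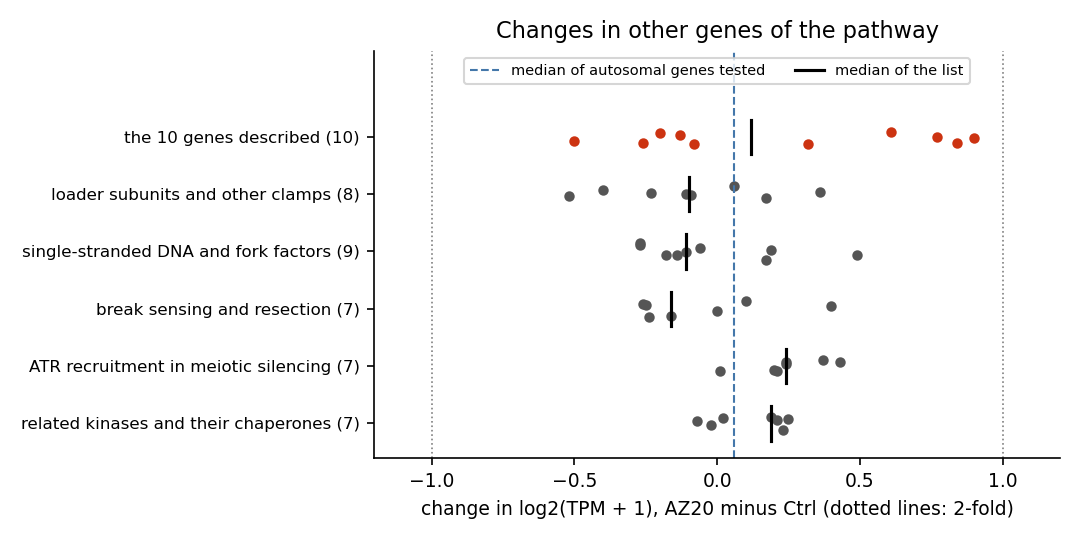
Change in log2(TPM + 1), AZ20 minus Ctrl (horizontal axis), for the 10 genes described (red) and for the tested genes of 5 other lists of the pathway (grey), with the number of genes in brackets, list medians as black lines and the autosomal median as a dashed line. All points lie between the 2-fold lines, and 4 red points lie to the right of every grey point. No gene shown was called.

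Promoter sequence was available from RefSeq (GRCm38.p6) for 9 of the 10 genes, without Rad9a, as 250 bases before to 50 bases after the start. The number of CpG dinucleotides was 18 to 38 in 8 of these genes and 5 in Hus1b, beside a median of 7 over 32851 promoters. Among 16 short motifs searched on both strands after the values had been seen, the core of ETS factor sites, CCGGAAG, occurred 2 times each in the promoters of Topbp1, Rad1 and Hus1b, the 3 members with an unadjusted p under 0.05. It occurred once in Atr and was not in the windows of Atrip, Etaa1, Rad17, Rad9b or Hus1. Of all promoters, 8.86% held at least 1 such core and 1.48% at least 2, but of autosomal tested genes with a promoter, the set comparable to the members, 4.73% held at least 2. The 3 sequences below are shown because they are the members with 2 cores, which are in capitals on whichever strand they occur. They run 5′ to 3′ on the strand of the gene, from 250 bases before to 30 bases after the start, at chr9:103305077-103305356 (plus) for Topbp1, chr15:10485768-10486047 (plus) for Rad1, for which RefSeq gives a further start 20 bases downstream, and chr13:30947732-30948011 (minus) for Hus1b.
Topbp1: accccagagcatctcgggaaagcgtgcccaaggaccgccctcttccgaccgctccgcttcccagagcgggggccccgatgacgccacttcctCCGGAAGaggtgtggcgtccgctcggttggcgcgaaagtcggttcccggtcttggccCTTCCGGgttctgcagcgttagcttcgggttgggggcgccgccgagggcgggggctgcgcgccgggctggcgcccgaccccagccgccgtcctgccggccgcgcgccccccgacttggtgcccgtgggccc
Rad1: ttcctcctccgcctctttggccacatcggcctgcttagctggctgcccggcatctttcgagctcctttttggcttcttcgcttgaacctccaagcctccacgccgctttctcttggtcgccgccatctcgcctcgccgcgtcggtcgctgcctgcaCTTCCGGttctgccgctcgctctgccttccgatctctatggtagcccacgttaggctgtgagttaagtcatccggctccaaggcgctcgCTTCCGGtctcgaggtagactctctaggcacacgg
Hus1b: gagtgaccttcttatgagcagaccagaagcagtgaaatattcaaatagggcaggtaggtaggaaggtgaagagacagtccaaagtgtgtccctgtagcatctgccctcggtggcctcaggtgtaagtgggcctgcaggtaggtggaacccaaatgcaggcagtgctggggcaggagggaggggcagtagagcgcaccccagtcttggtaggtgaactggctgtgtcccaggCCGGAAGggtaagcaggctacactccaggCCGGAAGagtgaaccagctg
Over 7365 autosomal tested genes with a promoter, the median change was 0.06 and 5.02% were higher at an unadjusted p under 0.05. Over the 348 of them with at least 2 cores, the median was 0.08 and the share 7.47%. The match is thus a description of these 3 promoters, and most genes that carry 2 cores did not reach an unadjusted p of 0.05.

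The other letters searched, with the share of all promoters that hold them, were as follows. CCAAT boxes (CCAAT) were in 37.4%, GC boxes (GGGCGG) in 35.7%, TATA boxes (TATAAA) in 13.6%, the cyclic AMP response element (TGACGTCA) in 1.79% and its shorter form (TGACGT), which the full element contains, in 7.51%. Cores of MYB sites were in 13.7% (CAGTTG), 8.01% (AACNGTC), 10.1% (CAGTTA) and 2.76% (CCGTTA). E2F sites were in 1.07% (TTTCCCGC) and 0.514% (TTTGGCGC), and GCGCC, which the latter contains on its other strand, was in 36.9%. Sites of NRF1, RFX and YY1 were in 0.971%, 0.563% and 0.633%. Among the 9 members with a promoter, GC boxes were in Atr, Atrip, Topbp1, Etaa1, Hus1 and Rad9b. GCGCC was in Atrip, Topbp1, Etaa1, Rad17, Rad1, Hus1 and Rad9b. CCAAT was in Atrip, Etaa1 and Rad9b, and TGACGT and CCGTTA were in Atrip alone. The remaining motifs of this paragraph were in no member's window.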

How the data were processed

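RNA was measured in 4 libraries of cultured pachytene spermatocytes, 2 Ctrl and 2 AZ20, grouped by the treatment in the labels. Reads were trimmed (Trimmomatic 0.39) and aligned to GRCm38 (STAR 2.5.4b) by the authors, who retained unique alignments, assigned them to UCSC refGene genes (featureCounts 2.0.1) and deposited TPM calculated from these counts. Each library sums to 1000000 TPM, so levels are relative, and 92 blank lines were left out.

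The test, limma (3.58.1, R 4.3.3) on log2(TPM + 1) with an intensity trend, covered the 10316 genes whose mean in either group exceeded 1 TPM, with Benjamini-Hochberg adjustment over all of them. A call needed a 2-fold change on that scale, which understates changes of low genes, and an adjusted p under 0.05. The count test that the study used was replaced because TPM are not counts. Whole reads were recovered from the TPM steps, since 1 length per gene applies to every library, for 100% of the 16857 genes above 0. TPM do not show a whole factor common to a gene's reads, which was set by transcript lengths within 5%, matched for 11535 genes and not for 5322. Depth is therefore approximate, and reads are PCR copies without molecular identifiers. Scripts were tested on simulated data. Other values used Python 3.11.15, pandas 2.3.3, numpy 2.4.6, scipy 1.17.1 and biopython 1.88 (pairwise alignment). Coordinates are from GENCODE on GRCm38.

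By the study's methods, the cells of each mouse were divided between the conditions. Same-numbered libraries are taken to share a mouse, which neither the methods nor the labels state. Their deviations correlated at 0.23 over tested genes. The block is an alternative that leaves 1 residual degree of freedom per gene.

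All 10 members are named with each library's value. Of each pathway list, called genes and those with the highest and lowest change are named, and of markers of other cells those above 10 TPM or at 0. Members and lists were chosen with earlier results of these data known. A few further genes were named for overlap with a member.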

Additional observations from a re-analysis of the deposited data

How the results depend on the processing

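The 10 genes kept their direction and stayed uncalled in 127 of 127 values under 13 alternatives: other pseudocounts (0.1 and 0.01), no filter or a mean TPM above 5, quantile normalization, no variance trend, the replicate block, voom on recovered reads without and with the block, and leaving out each library. Etaa1, Rad9a and Hus1 have no value with a mean TPM above 5. Direction could not change with the other filters, no variance trend or the replicate block, which left each estimate the same. For the 9 genes whose groups did not overlap, leaving out 1 library could not reverse the direction either. The 127 values are therefore not separate checks. The replicate block changed no call of a member, and with no limit on the fold, chosen after seeing the data, it gave 2 members and 508 of all tested genes. Over all genes the count of 240 became 447 with the replicate block, 336 with voom and the block and 237 with voom. Leaving out each library in turn gave 0 to 185 calls, with 159 without Ctrl replicate 2 and 0 without AZ20 replicate 1 or AZ20 replicate 2, where limma still gave 924 and 799 genes at an unadjusted p under 0.05. The lone AZ20 library is then assumed to vary like the Ctrl libraries, and the cause was not tested. Leaving out each library moved the change of Rad1 between 0.52 and 1.28, Hus1b between 0.49 and 1.19, Topbp1 between 0.37 and 0.85 and Rad9a between 0.32 and 1.22. The change of Rad9a also ran from 0.48 with quantile normalization to 1.35 with voom, and from 1.24 to 1.33 with the smaller pseudocounts. Quantile normalization moved the median of all genes from 0.07 to −0.07. The difference in log2 ratio of Rad9b to Rad9a ran from −1.54 to −0.51 and that of Hus1b to Hus1 from 0.65 to 1.55 over the alternatives. Depth limited Rad9a most, with 13 to 97 reads per library.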
